A study of Mus musculus with 6 samples.

Results

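The visual cycle is the set of reactions that returns light-bleached retinoid to the form that opsins can use. The 10 genes described here serve its steps: Rpe65, Lrat, Rlbp1, Rdh5, Rdh10, Rdh12, Rgr, Rbp3, Abca4 and Stra6. They were chosen by gene symbol, and all 10 were found among the 22692 symbols measured. All 10 also passed the filter on low values, which asked for a level of 1 RPKM or higher in 3 libraries and kept 13490 genes. RPKM is a read count divided by the length of the gene model and by the size of the library. RNA was sequenced from whole eyes of female C57BL/6J mice, an inbred strain with pigmented eyes, at 4 weeks of age. Eyes were taken 1.5 h or 9.0 h after light onset, with 3 libraries at each time. RNA of 5 mice was pooled for each library. Whether pools shared mice is not stated, and the p-values below therefore cover only how much these 6 libraries varied, part of which can be technical.

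When a visual pigment absorbs light, its 11-cis-retinal is turned into all-trans-retinal, which leaves the opsin. Photoreceptors reduce it to retinol and pass it to the retinal pigment epithelium, where it is stored as an ester, isomerized, oxidized to 11-cis-retinal and returned. Mueller glia, the radial support cells of the retina, hold some of the same enzymes and binding proteins.

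The depth behind each library, estimated from the smallest step of the RPKM values, was between 12700000 and 31800000 reads, with 1.5 h replicates 2 and 3 the shallowest. Each of the 10 genes then had at least 244 reads per kilobase in every library. In 1.5 h replicate 3, which is labelled female, 4 Y-linked genes had between 0.126 and 0.781 RPKM, and they were listed at 0 in the other 5 libraries. In 1.5 h replicate 1 the 20 lens genes had a mean deviation of −0.713 from their 6-library means on the log2 scale. Without the library with Y-linked signal, 0 of the 10 genes were called and their median log2 fold change was −0.26. The rod transducin gene Gnat1 had a mean of 3338 RPKM and the pigment gene Dct 434 RPKM. Dct was listed with pigment cells in general, not with the pigment epithelium. The pigment epithelium channel gene Best1 was below the filter on low values. The other genes of the pigment epithelium list had means from 1.52 to 469 RPKM. That list is not specific to the pigment epithelium, as Rgs9bp is a photoreceptor gene and photoreceptors also express Otx2.

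No visual cycle transcript passed the test between 1.5 h and 9.0 h, while 9 of the 10 had a lower mean at 9.0 h. By limma at an adjusted p of 0.05, 0 of the 10 were called, against 0.222% of all tested genes. At an unadjusted p of 0.05 the count was also 0 of 10, against 11.1%. That count depended on the processing. It was 5 of 10 after quantile normalization (1456 of 13490 tested genes) and 5 of 10 without 1.5 h replicate 1 (3134 of 13490). It was 4 of 10 with the GC and length trends described below removed (2265 of 13378) and 3 of 10 with array weights (4223 of 13490), in which libraries count by their estimated quality. The median log2 fold change (9.0 h minus 1.5 h) was −0.22 over the 10 genes and −0.003 over all tested genes, of which 50.6% were below 0. The number of the 10 genes with a negative fold change depended on scaling and on single libraries. It was 7 after centring libraries on rod genes and 6 after centring on pigment epithelium genes. Without 1.5 h replicate 2 it was 7, and without 9.0 h replicate 1 or 2 it was 8. The largest negative value was that of Rgr, at −0.39, and the one positive value was that of Rbp3, at 0.22. The summed level of the 10 genes was 1341, 1504 and 1359 RPKM in the 1.5 h libraries. In the 9.0 h libraries it was 1290, 1264 and 1315 RPKM. The sums did not overlap between the times, but no such share was computed for sums of other genes. The most abundant genes weigh most in these sums. Of the single genes only Rgr did not overlap, 1 of 10, against 18.2% of tested genes. In whole-eye RNA, fewer cells of a type and less RNA per cell cannot be told apart.

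The median also depended on single libraries. It was −0.33 without 1.5 h replicate 1 and −0.14 without 1.5 h replicate 2. When libraries were centred on the rod genes or on the other pigment epithelium genes, the median was −0.06 or −0.05, where that of all tested genes moved to 0.16 or 0.17.

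**Figure D1:**
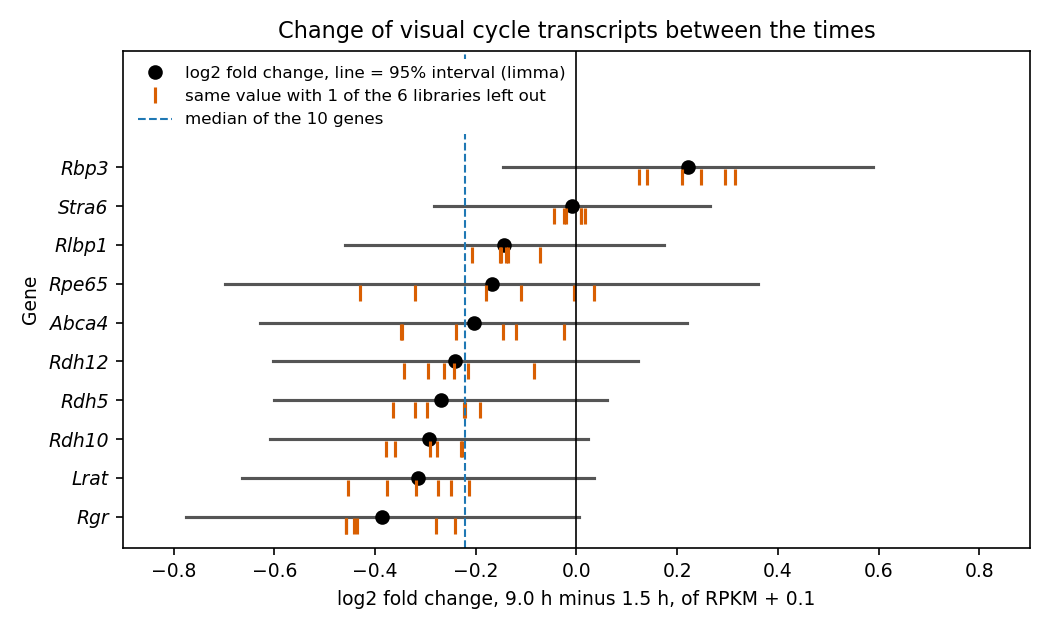
Log2 fold change (9.0 h minus 1.5 h) of each visual cycle gene, with its 95% interval from limma (line) and the values with 1 library left out (orange ticks). All 10 intervals contain 0, and the blue dashed line is the median of the 10 genes, −0.22.

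Levels per length differed widely among the steps. Rbp3, which encodes the retinoid-binding protein of the space between photoreceptors and pigment epithelium, had the highest mean, 399 RPKM over the 6 libraries. It was followed by Rgr at 292 and Rlbp1 at 225 RPKM. Rdh12 and Rdh5, dehydrogenases of photoreceptors and of pigment epithelium, had 124 and 103 RPKM. Rpe65, Abca4 and Rdh10 had 62.9, 54.9 and 47.2 RPKM. Stra6 and Lrat, which serve uptake and storage of retinol, were lowest, at 20.7 and 16.1 RPKM.

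Some neighbours in this order could not be separated. Rbp3 exceeded Rgr in 5 of 6 libraries, Rpe65 exceeded Abca4 in 4 of 6, and Abca4 exceeded Rdh10 in 4 of 6, with overlapping ranges. The ranges of Rlbp1 and Rdh12, of Rdh5 and Rpe65, and of Rdh10 and Stra6 did not overlap. Rlbp1, Rdh12, Rdh5, Stra6 and Lrat held ranks 3, 4, 5, 9 and 10 in every library. Rbp3 lay in the top 0.534% of tested genes by mean level, and Lrat in the top 28.4%.

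**Figure D2:**
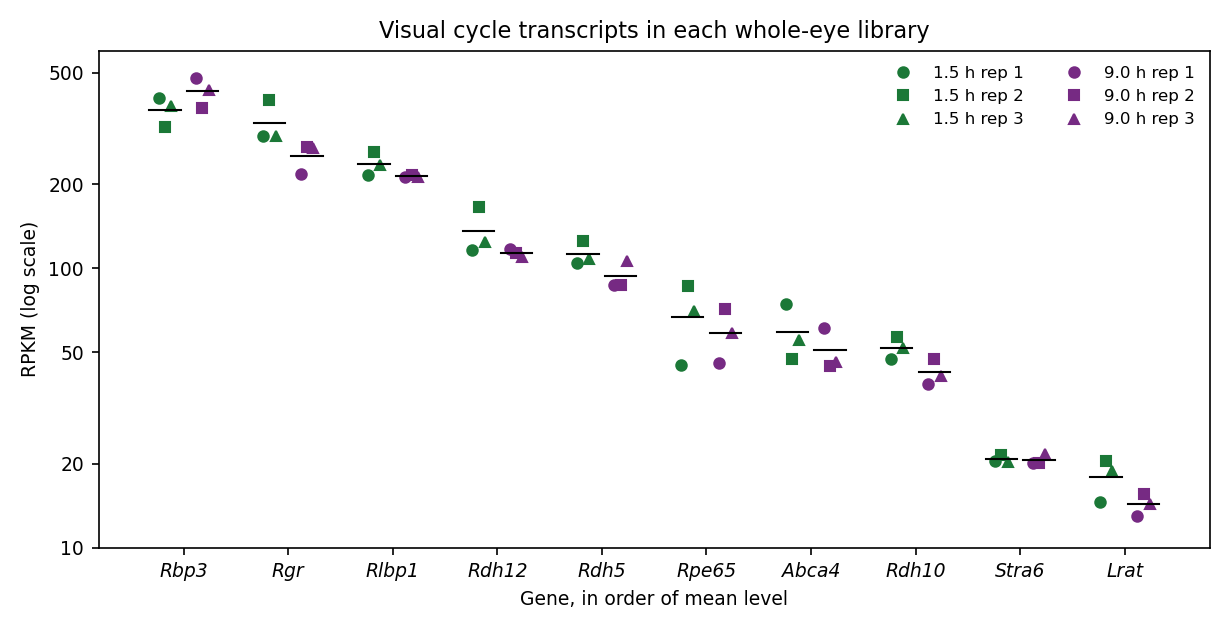
RPKM (log scale) of the 10 visual cycle genes in each library, with 1.5 h in green, 9.0 h in purple, replicate number by symbol and the mean of each time as a bar. Rbp3 has the highest and Lrat the lowest mean, and only Rgr has all 9.0 h libraries below all 1.5 h libraries.

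Stra6 encodes the membrane receptor that takes up retinol from its serum carrier. It had 20.4, 21.5 and 20.3 RPKM at 1.5 h (replicates 1 to 3) and 20.1, 20.1 and 21.6 RPKM at 9.0 h. All 6 libraries lay within a ratio of 1.08 between the highest and the lowest. Its fold change (9.0 h to 1.5 h) had a 95% interval of 0.821 to 1.20 around 0.993 (limma adjusted p = 0.987). The SD of its log2 values over the 6 libraries was 0.0487, and only 0.119% of tested genes had a smaller one. That SD was 0.131 once trends with GC content and length were removed from each library, an alternative chosen after seeing the data, so its small spread depended on the scaling. The sign of its difference also changed with the scaling: the log2 fold change was −0.01 as deposited, 0.15 after centring on rod genes and −0.11 with those trends removed.

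Lrat, lecithin retinol acyltransferase, makes the retinyl esters that Rpe65 uses. It had 14.6, 20.4 and 18.8 RPKM at 1.5 h and 13.0, 15.5 and 14.4 RPKM at 9.0 h. The times overlapped only through 1.5 h replicate 1. The means were 17.9 ± 3.0 and 14.3 ± 1.3 RPKM (SD, n = 3 each), and the log2 fold change was −0.31 ± 0.16 (SE; limma adjusted p = 0.502). Without 1.5 h replicate 1 it was −0.45 and passed (limma adjusted p = 0.0479), in a fit that called 1245 of 13490 tested genes. It passed as well with array weights, at −0.38 (limma adjusted p = 0.0188), in a fit that called 2244 of 13490. The estimation of those weights stopped before convergence.

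Rpe65 encodes the isomerohydrolase that turns retinyl ester into 11-cis-retinol. It had 45.1, 86.2 and 70.3 RPKM at 1.5 h and 46.0, 71.3 and 58.7 RPKM at 9.0 h. Replicate 1 was the lowest of each time, and the times overlapped almost fully. Its log2 fold change was −0.17 ± 0.24 (SE; limma adjusted p = 0.846), and its fold change had a 95% interval of 0.617 to 1.28. The ratio of its highest to its lowest library was 1.91, the widest of the 10 genes. The difference was −0.43 without 1.5 h replicate 1 (limma adjusted p = 0.0696) and 0.04 without 1.5 h replicate 2 (limma adjusted p = 0.968). Without 9.0 h replicates 1 or 2 it was −0.0048 or −0.32.

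Rlbp1 encodes CRALBP, which binds 11-cis-retinoids in pigment epithelium and Mueller glia. Its level was 216, 260 and 233 RPKM at 1.5 h and 211, 216 and 213 RPKM at 9.0 h. The 9.0 h libraries were close together, with an SD of 2.56 RPKM, and overlapped the 1.5 h libraries narrowly. The log2 fold change was −0.14 ± 0.14 (SE; limma adjusted p = 0.773), and 0.02 and 0.03 after centring on rod or on pigment epithelium genes. Without 1.5 h replicate 2 it was −0.07.

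Rdh5 encodes the 11-cis-retinol dehydrogenase of the pigment epithelium, which makes 11-cis-retinal. It had 105, 125 and 108 RPKM at 1.5 h and 87.1, 87.4 and 106 RPKM at 9.0 h. The overlap came from 9.0 h replicate 3, and the log2 fold change was −0.27 ± 0.15 (SE; limma adjusted p = 0.554).

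Rgr encodes an opsin of pigment epithelium and Mueller glia that isomerizes retinoid in light. It had 297, 401 and 297 RPKM at 1.5 h and 217, 272 and 269 RPKM at 9.0 h. It was the one of the 10 genes whose libraries did not overlap between the times, where 8.41% of tested genes did not overlap and were lower. The means were 332 ± 60 and 253 ± 31 RPKM (SD, n = 3 each). Its log2 fold change of −0.39 ± 0.18 (SE) did not pass (limma adjusted p = 0.456). It was the largest in size among the 10 with all libraries, and −0.24 without 1.5 h replicate 2, where that of Abca4 was larger (−0.35). Abca4 was also larger without 9.0 h replicate 1, as was Lrat with array weights. So was Rbp3 after centring on rod genes or on pigment epithelium genes. With GC and length trends removed, Rdh5 was larger, at −0.39 against −0.34 for Rgr.

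Rdh10 encodes a retinol dehydrogenase of pigment epithelium and Mueller glia that also begins retinoic acid synthesis in many tissues. It had 47.2, 56.7 and 52.0 RPKM at 1.5 h and 38.5, 47.5 and 41.3 RPKM at 9.0 h. Only 1.5 h replicate 1 and 9.0 h replicate 2 overlapped, and the log2 fold change was −0.29 ± 0.14 (SE; limma adjusted p = 0.488).

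The remaining 3 genes act in or next to photoreceptors. Rbp3, a product of photoreceptors, had 406, 320 and 380 RPKM at 1.5 h and 479, 375 and 435 RPKM at 9.0 h. Replicate 2 was the lowest of each time, and the times overlapped, where 9.78% of tested genes did not and were higher. The means were 368 ± 44 and 430 ± 52 RPKM (SD, n = 3 each), with a log2 fold change of 0.22 ± 0.17 (SE; limma adjusted p = 0.681). It was 0.12 without 1.5 h replicate 2 and 0.14 without 9.0 h replicate 1. After quantile normalization its log2 fold change was 0.0018 (limma adjusted p = 0.999), and after centring on rod genes it was 0.38 (limma adjusted p = 0.258).

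Abca4 encodes the transporter that moves retinal bound to phosphatidylethanolamine across outer segment disc membranes. It had 74.3, 47.4 and 55.3 RPKM at 1.5 h and 61.3, 44.8 and 46.4 RPKM at 9.0 h. Replicate 1 was the highest of each time. The log2 fold change was −0.20 ± 0.19 (SE; limma adjusted p = 0.755), and ranged from −0.03 without 1.5 h replicate 1 to −0.35 without 1.5 h replicate 2 or without 9.0 h replicate 1. Rdh12, a dehydrogenase of photoreceptor inner segments that reduces retinal, had 116, 166 and 124 RPKM at 1.5 h and 117, 114 and 110 RPKM at 9.0 h. Its 1.5 h replicate 2 stood above the other 5 libraries. The log2 fold change was −0.24 ± 0.16 (SE; limma adjusted p = 0.642), and −0.08 without that library.

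Promoter sequences are shown for the 4 genes whose start region holds the core recognized by CRX and OTX2, homeodomain factors of photoreceptors and pigment epithelium. They include the gene with the one positive and the gene with the largest negative difference. Windows came from RefSeq on build GRCm38.p6, which is not the build of the deposited files (mm9), and cover 250 bases before and 50 bases after a start. Windows were matched for 9 of the 10 genes, 12 in all. The core searched was TAATCC on both strands (GGATTA on the other). Capitals mark it, and in Rpe65 they also mark TTATGTAA, a D-box, the element bound by PAR bZIP factors such as Dbp and by Nfil3. The sequences run 5′ to 3′ on the strand of the gene.
Rpe65: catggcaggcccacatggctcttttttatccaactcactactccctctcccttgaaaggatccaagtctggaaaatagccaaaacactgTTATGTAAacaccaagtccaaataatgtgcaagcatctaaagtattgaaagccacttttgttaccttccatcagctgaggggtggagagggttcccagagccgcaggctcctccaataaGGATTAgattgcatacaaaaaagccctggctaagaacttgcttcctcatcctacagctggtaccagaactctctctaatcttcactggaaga
Rgr: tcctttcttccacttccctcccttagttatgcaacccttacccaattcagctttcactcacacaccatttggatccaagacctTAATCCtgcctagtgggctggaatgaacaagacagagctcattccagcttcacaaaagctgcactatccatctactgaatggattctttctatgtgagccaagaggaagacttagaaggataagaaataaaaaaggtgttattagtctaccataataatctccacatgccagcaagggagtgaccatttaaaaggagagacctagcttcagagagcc
Rbp3: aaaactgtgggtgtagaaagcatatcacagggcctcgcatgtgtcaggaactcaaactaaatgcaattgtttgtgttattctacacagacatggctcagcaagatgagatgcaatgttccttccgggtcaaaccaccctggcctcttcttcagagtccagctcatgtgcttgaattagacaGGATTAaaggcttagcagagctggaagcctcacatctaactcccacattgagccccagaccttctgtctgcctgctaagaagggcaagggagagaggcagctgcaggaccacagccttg
Abca4: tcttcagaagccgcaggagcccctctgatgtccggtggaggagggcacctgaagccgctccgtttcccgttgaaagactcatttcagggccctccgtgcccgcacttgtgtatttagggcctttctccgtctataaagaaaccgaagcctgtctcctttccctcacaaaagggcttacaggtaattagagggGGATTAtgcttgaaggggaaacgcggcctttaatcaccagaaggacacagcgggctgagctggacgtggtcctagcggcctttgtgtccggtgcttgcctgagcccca

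The Rpe65 window is chr3:159598931-159599230 (plus strand), and its core lies 42 bases before the start. That of Rgr is chr14:37048965-37049264 (minus strand), with the core 167 bases before the start. Rbp3 has chr14:33953753-33954052 (plus strand) and Abca4 has chr3:122044210-122044509 (plus strand), with cores 69 and 58 bases before the start. The core was present in 4 of the 12 windows of these genes, and in 7.06% of all 32851 windows of the table. Those windows belong to 4 of the 9 genes with a window, and no share by gene was computed for the table. The D-box letters were in the Rpe65 window, 161 bases before the start, and in 0.938% of all windows. The E-box CACGTG, the same on both strands and the element bound by Arntl with Clock, was in none of the 12 windows and in 7.15% of all. None of the matched motifs overlapped another. Rbp3 and Rgr, which both hold the core, had log2 fold changes of opposite sign, neither of which passed. Whether the core bears on them was not tested.

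The widest deviations of the visual cycle genes lay in 1.5 h replicates 1 and 2 and in 9.0 h replicate 1. In 1.5 h replicate 2, 8 of the 10 genes stood above their own 6-library mean, by 0.06 for Stra6 to 0.49 for Rpe65 on the log2 scale. Abca4 and Rbp3 stood 0.19 and 0.31 below theirs in that library. In 9.0 h replicate 1 the signs were the reverse for these genes, with Rpe65, Rgr, Lrat and Rdh10 0.28 to 0.41 below their means and Rbp3 and Abca4 0.27 and 0.18 above. Rdh12, also a photoreceptor gene, stood 0.43 above its mean in 1.5 h replicate 2. Rbp3 and Abca4 did not move together in every library: in 9.0 h replicate 3 they had 0.14 and −0.22.

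The rod, pigment cell and pigment epithelium marker lists deviated most in 1.5 h replicate 2. In 1.5 h replicate 1 their mean deviations were 0.011, −0.145 and −0.057, and in 9.0 h replicate 1 −0.087, −0.144 and −0.088. Among the 9.0 h libraries the rod list was lowest in replicate 2 and the other lists named here in replicate 3. The mean deviation of the 18 rod genes was 0.19 in 1.5 h replicate 2 and between −0.13 and −0.03 in the 9.0 h libraries, and that of the 10 pigment cell genes was 0.41 and between −0.29 and −0.09. Over the 14 tested genes of the pigment epithelium list (visual cycle genes left out) it was 0.23 and between −0.16 and −0.01. Of these 14 genes, 9 were lower at 9.0 h and 0 were called, with a median log2 fold change of −0.24. The summed level of this list was 761.5 to 1192 RPKM at 1.5 h and 929 to 981 RPKM at 9.0 h. Ttr and Serpinf1, with means of 469 and 183 RPKM, weigh most in it. Their log2 fold changes were 0.12 and 0.31, opposite in sign to the median of the list. Rod genes had a median of −0.16 (14 of 18 lower) and summed levels of 17295 to 19316 RPKM and 16435 to 18200 RPKM. Mueller glia genes had a median of −0.01 over 10, with 2427 to 2969 RPKM and 2598 to 2865 RPKM. Lens genes had a median of 0.42 over 20, with 125080 to 216540 RPKM and 209330 to 252290 RPKM, and their share of the reads enters the denominator of every RPKM. None of these lists had a gene listed at 0 in any library, and their part in the differences of the visual cycle genes was not tested.

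**Figure D3:**
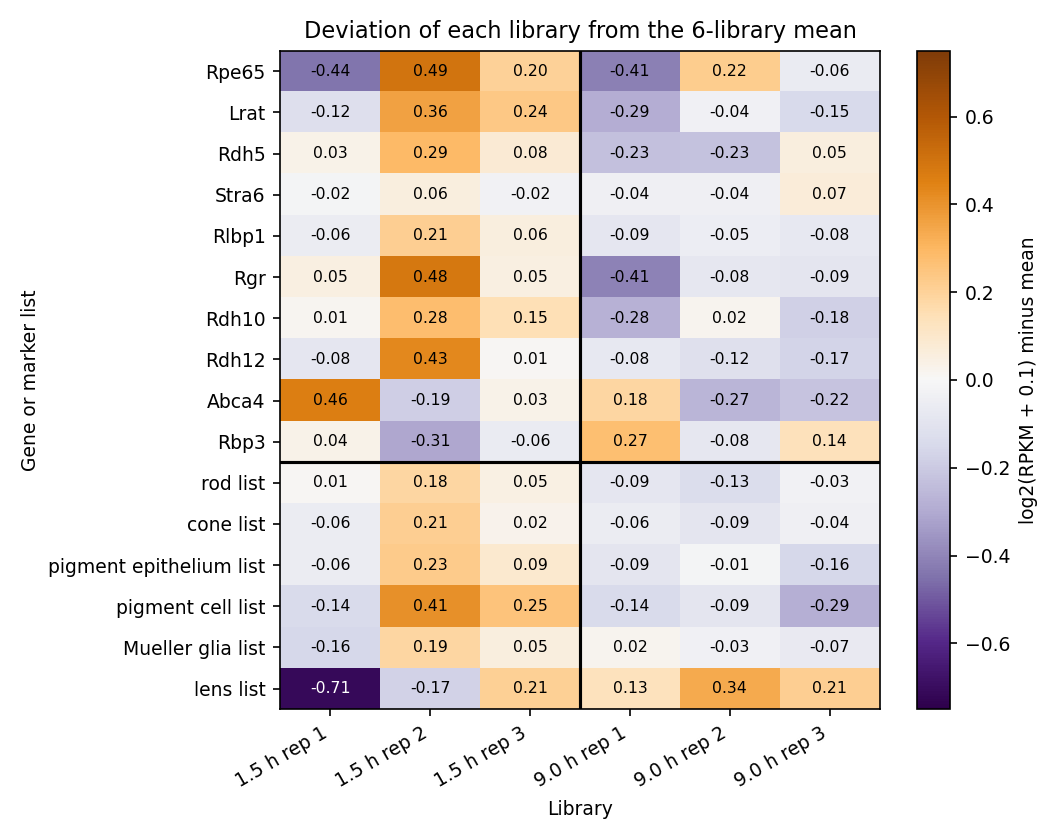
Deviation of each library from the 6-library mean of log2(RPKM + 0.1), for the 10 visual cycle genes (above the line) and as the mean over marker lists (below it). Rpe65 is 0.49 above its mean in 1.5 h replicate 2 and 0.44 below it in 1.5 h replicate 1, and Abca4 has the opposite pattern.

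Ratios between the genes, which do not depend on how a library is scaled by a single factor, were compared as well. Of the 45 ratios, 6 (13.3%) did not overlap between the times, against 19.7% of all ratios of tested genes, so this share was no higher than the background. The ratio of Rbp3 to Abca4, named after its values were seen, was 5.46, 6.75 and 6.87 at 1.5 h and 7.81, 8.38 and 9.38 at 9.0 h. The ratio of Rpe65 to Abca4 was 0.607, 1.82 and 1.27 at 1.5 h and 0.751, 1.59 and 1.26 at 9.0 h, and it varied more within each time than between them.

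The spread among libraries of 1 time also moved with the GC content of the transcripts. So did the log2 fold change between the times. Its median was −0.149 in the tenth of tested genes with the lowest GC content and 0.121 in the tenth with the highest. Among tested genes with a known transcript (13378), the median log2 difference between 1.5 h replicates 1 and 2 was −0.588 in the tenth with the lowest GC content and 0.426 in the tenth with the highest. Rpe65 and Lrat transcripts have 42.2% and 42.0% GC, with 12% and 11.1% of tested genes lower, and differed by −0.933 and −0.479 between these libraries. Rbp3 and Abca4 have 55.7% and 52.1% GC and differed by 0.343 and 0.648. Rlbp1 and Rdh5, at 52.9% and 54.1% GC, differed in the opposite direction, by −0.27 and −0.256. Rdh10, Rdh12 and Rgr, at 46.8%, 48.4% and 48.2% GC, differed by −0.265, −0.516 and −0.433. Stra6, at 56.3% GC, differed by −0.074. With GC and length trends removed from each library, the SD of log2 Rpe65 over the 6 libraries was 0.154 in place of 0.374, and that of Abca4 0.129 in place of 0.283. It was larger for Rlbp1 (0.142 in place of 0.117), Rdh5 (0.222 in place of 0.200) and Stra6, and unchanged at 0.288 for Rgr.

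With those trends removed, which was an alternative chosen after seeing the data, 0 of the 10 genes passed and 9 had negative fold changes (median −0.21). Rlbp1, Rdh5, Rdh10, Rdh12 and Rgr then had all 9.0 h libraries below all 1.5 h libraries, 5 of 10 genes, against 12.2% of tested genes. For Rgr the nearest libraries of the times were equal to 3 decimals, at 0.020. Rbp3 had all 9.0 h libraries above, as did 12% of tested genes. The lowest adjusted p among the 10 was that of Rdh5, at 0.102 (limma), with a log2 fold change of −0.39.

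**Figure D4:**
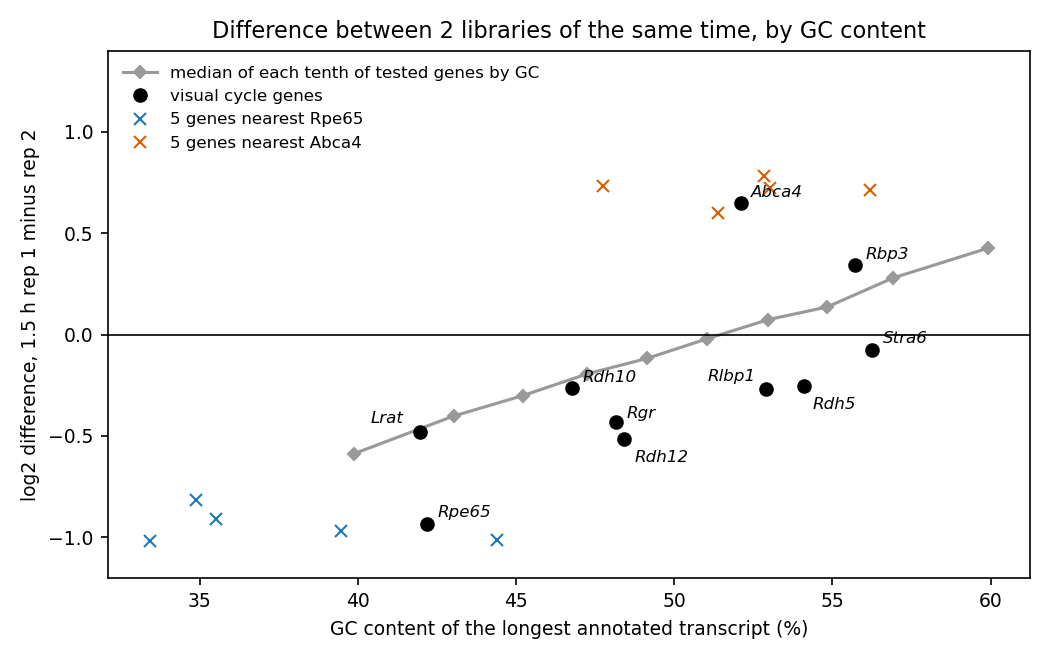
Log2 difference between 1.5 h replicates 1 and 2 against the GC content of the longest annotated transcript, for the visual cycle genes (black), the 5 genes nearest in pattern to Rpe65 (blue) and to Abca4 (orange), and the medians of tested genes in 10 bins of GC content (grey). The grey line runs from −0.588 to 0.426, with Rpe65 below it and Abca4 above it.

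Other genes of retinoid handling were taken from a list of 34 symbols, of which 33 were in the files and 25 were tested. None was called by limma (0.222% of all tested genes), 5 of 25 had an unadjusted p under 0.05 (11.1% of all tested genes), and the median log2 fold change was 0.04, with 11 of 25 below 0. Libraries of the times did not overlap for 6 of 25, 4 lower and 2 higher, where 18.2% of all tested genes did not overlap. Abundant genes of the list were Aldh1a1, a retinal-oxidizing enzyme, at a mean of 76.8 RPKM, the cellular retinol-binding protein Rbp2 at 70.9 RPKM, Degs1, a desaturase, at 62.5 RPKM, and the retinal reductase Dhrs3 at 52.4 RPKM. Rdh8, which reduces retinal in outer segments, had 29.2 RPKM. The log2 fold changes of these 5 were between −0.22 (Rdh8) and 0.07 (Aldh1a1).

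The largest differences in this list were those of Cyp26b1, Cyp26a1 and Rarb, named here after their values were seen. Cyp26b1 and Cyp26a1 encode the enzymes that break down retinoic acid, and Rarb one of its nuclear receptors. Cyp26b1 had 4.95, 7.18 and 6.73 RPKM at 1.5 h and 3.94, 2.37 and 3.43 RPKM at 9.0 h. Cyp26a1 had 5.16, 6.17 and 7.79 RPKM at 1.5 h and 4.15, 2.75 and 3.54 RPKM at 9.0 h. Neither gene overlapped between the times, nor did Rarb, with 6.04, 9.70 and 5.94 RPKM against 4.19, 4.83 and 4.45 RPKM. The log2 fold changes were −0.95 ± 0.21, −0.85 ± 0.20 and −0.64 ± 0.20 (SE), and the limma adjusted p values of 0.125, 0.146 and 0.266 did not pass. All 3 passed without 1.5 h replicate 1, at −1.11, −0.99 and −0.75 (limma adjusted p = 6.63e-08, 1.95e-06 and 0.000648), in a fit that called 1245 genes. In the other direction, Crabp1, a cellular retinoic acid-binding protein, had 0.54 and the receptor Rarg 0.39, again without overlap and not past the threshold (limma adjusted p = 0.325 and 0.382). Both passed as well without 1.5 h replicate 1, at 0.73 and 0.52 (limma adjusted p = 0.000617 and 0.0195), as did Rrh, an opsin of the pigment epithelium, at −0.57 (limma adjusted p = 0.00896). With array weights Cyp26b1, Cyp26a1, Rarb, Crabp1 and Rarg passed, in a fit that called 2244 of 13490 tested genes.

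**Figure D5:**
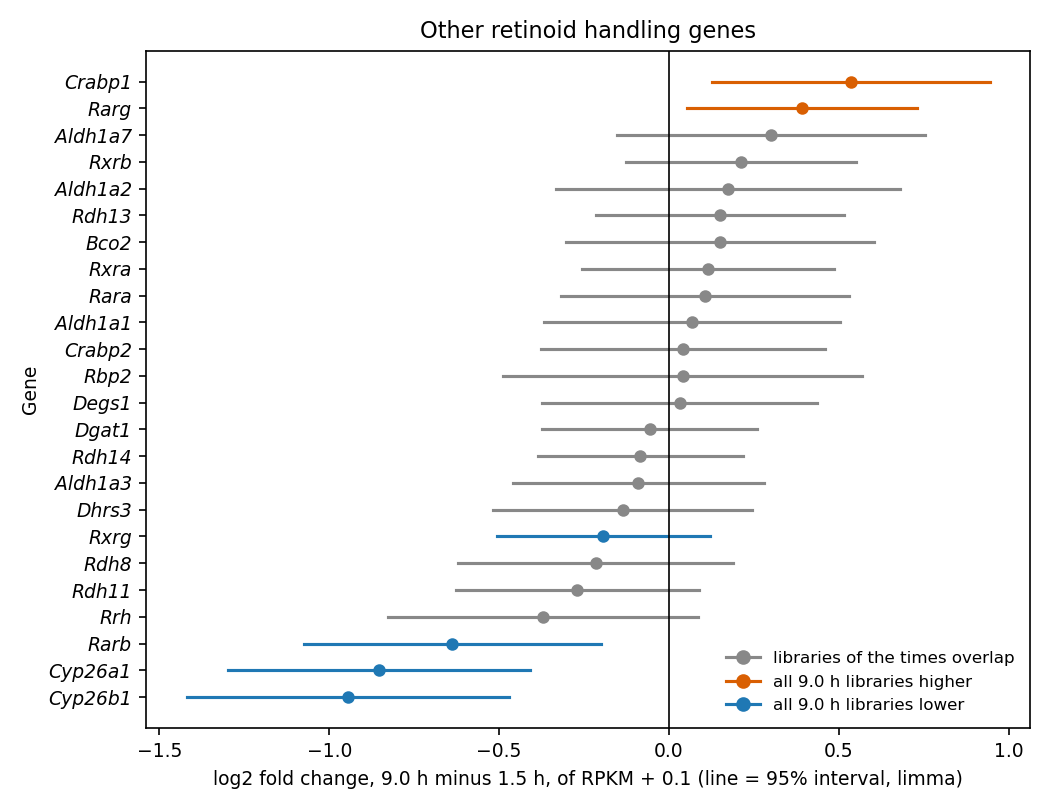
Log2 fold change (9.0 h minus 1.5 h) with its 95% interval (limma) for tested other retinoid handling genes. Cyp26b1, Cyp26a1, Rarb and Rxrg have all 9.0 h libraries below all 1.5 h libraries (blue), and Crabp1 and Rarg above (orange).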

How the data were processed

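Poly(A) RNA of 6 whole-eye libraries, 3 per time, was sequenced. The authors deposited 1 table per library in RPKM, a unit taken from the values. Per the submitters' processing notes, GSNAP, HTSeq and the build mm9 were used. Tool versions, annotation and strand setting were not given in the sources used here. Because RPKM values are not read counts, limma 3.58.1 (R 4.3.3, eBayes with trend and robust settings, two-sided) was applied to log2(RPKM + 0.1) of all 6 libraries. Fold changes on that scale understate the change of low genes. Tested genes had at least 1 RPKM in at least 3 libraries, and a gene was called where its Benjamini-Hochberg adjusted p, over all of them, was under 0.05. The fit was tested on simulated data. Depth came from the step of low values in genes of a single transcript length, where 68.9% to 72.0% of values lay within 0.1 read of a whole number. GC content and length came from the longest GENCODE M21 transcript, for 99.2% of tested genes. The members and lists were chosen with earlier results of these data known. Named genes were the 10 members, the 6 most abundant genes of the other retinoid list (one of them is not reported here), at most 2 genes of a marker list (and Best1, for falling below the filter), and the 5 genes nearest in pattern to Rpe65 and Abca4 with a mean of at least 2 RPKM. Cyp26a1, Cyp26b1, Rarb, Crabp1, Rarg, Rxrg and Rrh fall outside that rule and were named after their values were seen. Rgs9bp and Otx2 fall outside it as well and were named for the cells that express them. Alternatives covered the pseudocount, the filter, the scaling, library weights, the replicate number, each library left out, and GC content and length. Stromal and muscle lists are summarised in the closing section.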

Additional observations from a re-analysis of the deposited data

How the results depend on the processing

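With 3 libraries a time, calls depended on single libraries. Leaving out 1 library in turn gave 0 to 1 visual cycle genes called (Lrat, without 1.5 h replicate 1), a median over the 10 genes of −0.33 to −0.14, 2 to 1245 genes called in all and 0 to 6 called genes of the other retinoid list. The lowest count came without 9.0 h replicate 3 and the highest without 1.5 h replicate 1. Rpe65 ranged from −0.431 to 0.0357 and Stra6 from −0.0456 to 0.0160 in these fits. Array weights called 1 visual cycle gene, 5 other retinoid genes and 2244 genes in all, and their estimation stopped before convergence. Genes called in all, 30 as reported, were 10 with no filter, 19 with at least 5 RPKM, 15 after quantile normalization, 18 after centring on medians, 162 after centring on rod genes and 86 with GC and length trends removed. Centring on rod or pigment epithelium genes moved the median over the 10 genes to −0.0615 and −0.0500. Stra6 turned to 0.00066, 0.151, 0.163 and 0.0185 with centring on medians, rod genes and pigment epithelium genes and with array weights, Rlbp1 to 0.0179 and 0.0294 with centring on rod and pigment epithelium genes, and Rpe65 to 0.0038 with the latter. The causes were not tested. Abca4, Lrat, Rdh5, Rdh10, Rdh12, Rgr and Rbp3 kept their sign in all 17 alternatives. Changes of the filter and the replicate block leave fold changes as they are, so those alternatives could not have changed a sign.

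Samples with the same replicate number were not paired by the labels. Their deviations correlated across genes with r = 0.347, 0.484 and −0.215, and not every library correlated best with its own number. With the replicate number as a block, 141 genes were called in all, 1 of the other retinoid list (Cyp26a1, limma adjusted p = 0.0432) and none of the 10 visual cycle genes. The median of the 10 was −0.22, a value that the block cannot change in this design.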

Other observations

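The genes nearest to Rpe65 in pattern over the 6 libraries were 4933421E11Rik, Dpm1, Ndufaf4, Jrkl and Nxt2. Likeness was the root mean square difference of log2 deviations from each gene's own mean, and it was 0.027 to 0.056 for these 5, against a median of 0.378 over the 12012 genes compared. Their transcripts have 33.4% to 44.4% GC, and that of Rpe65 42.2%, where the median of tested genes was 50.1%. Nearest to Abca4 were Prrc2b, Ptch1, Kdm5c, Chd7 and Clcn6, at 0.044 to 0.052 against a median of 0.32. Their longest transcripts have 5198 to 10671 bases, and that of Abca4 has 7263. The GC content of these 5 is 47.8% to 56.2%, on both sides of the median of tested genes, and that of Abca4 is 52.1%. The 5 genes nearest to Rpe65 have transcripts of 2538 to 4959 bases, and that of Rpe65 has 1863.

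Among the 10 visual cycle genes the most alike were Lrat and Rdh10, at 0.077, and the least alike Rpe65 and Abca4, at 0.565.

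The corneal stroma and sclera list had a median log2 fold change of 0.57 over 10 genes, and the skeletal muscle list 0.33 over 10, with none called. In 1.5 h replicate 1 they lay 0.795 and 0.663 below their 6-library means. The cone list had a median of −0.19 (9 of 10 lower) and the pigment cell list −0.34 (10 of 10 lower), with none called.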
